A study of Mus musculus with 4 samples.

Results

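The genes described here are 10 genes of the distal convoluted tubule: the sodium chloride cotransporter Slc12a3, the calcium-binding proteins Pvalb and Calb1, the magnesium channels Trpm6 and Trpm7, the calcium channel Trpv5, the potassium channel Kcnj10, the sodium-calcium exchanger Slc8a1, the growth factor Egf and the plasma membrane calcium pump Atp2b1. Their measurements are the probe sets, groups of array probes against a transcript, whose annotation gave exactly 1 gene symbol equal to one of these names. There were 22 such probe sets among the 45037 of the array that are not controls, and they covered 9 of the 10 genes. No probe set used here was named for Trpv5, so it has no value below. The symbols of these 22 probe sets were the same in RefSeq by Entrez identifier.

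The cells were mDCT, an immortalised mouse line derived from the distal convoluted tubule, transfected with pCSII-3xFLAG-hMR, a plasmid that encodes the human mineralocorticoid receptor (MR), to which aldosterone binds. All cultures carried this plasmid. At 48 h they were given spironolactone, which blocks MR, or its vehicle ethanol, and 2 h later aldosterone or ethanol for a further 3 h. The 4 treatments, with 1 array each, were 100 nM aldosterone after 5 µM spironolactone (the spironolactone array below), ethanol, 1 nM aldosterone and 100 nM aldosterone. No array received spironolactone alone. Every value is therefore from 1 culture, no difference can be set against a spread between replicates, no test was possible, and precision is limited by the number of arrays.

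The distal convoluted tubule reabsorbs sodium and chloride through the thiazide-sensitive cotransporter encoded by Slc12a3. Basolateral potassium channels with a subunit encoded by Kcnj10 help to set the membrane voltage of its cells. Magnesium enters the same cells through channels built from TRPM6 and its widely expressed relative TRPM7, both of which carry a kinase domain, and epidermal growth factor, made from Egf, stimulates this uptake. In the later part of the segment calcium enters through TRPV5, is carried across the cytosol by calbindin-D28K (Calb1) and leaves through the exchanger NCX1 (Slc8a1) and the pump PMCA1 (Atp2b1). Parvalbumin (Pvalb) buffers calcium in the early part of the segment in mice.

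The genes fell on both sides of the array median in this line. Of the 22 probe sets, 10 lay above the median signal of their array in all 4 arrays, 11 lay below it in all 4, and 1, that of Pvalb, lay above it in 2. Among all probe sets of the array, 45.2% lay above the median in all 4 arrays. That share includes the 9160 probe sets with no gene symbol, whereas all 22 had 1, so it is not a share of like probe sets. The median of the probe sets with 1 symbol was higher, between 92.1 and 94.2, and 7 of the 22 lay above it in all 4 arrays. Every probe set of Trpm7 (4), Atp2b1 (3), Kcnj10 (1) and Egf (1) was above, every probe set of Slc12a3 (2), Calb1 (4) and Slc8a1 (4) was below, and Trpm6 had 1 on each side. The median signal, in the arbitrary linear units of the MAS5 algorithm, was 59.5 in the spironolactone array, 58.7 in ethanol, 61.5 with 1 nM and 59.3 with 100 nM aldosterone. A probe set's signal depends on its own probes as well as on the transcript, so these places describe probe sets and do not rank genes by abundance. In a whole culture, fewer cells of a type and less RNA per cell cannot be told apart.

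**Figure D1:**
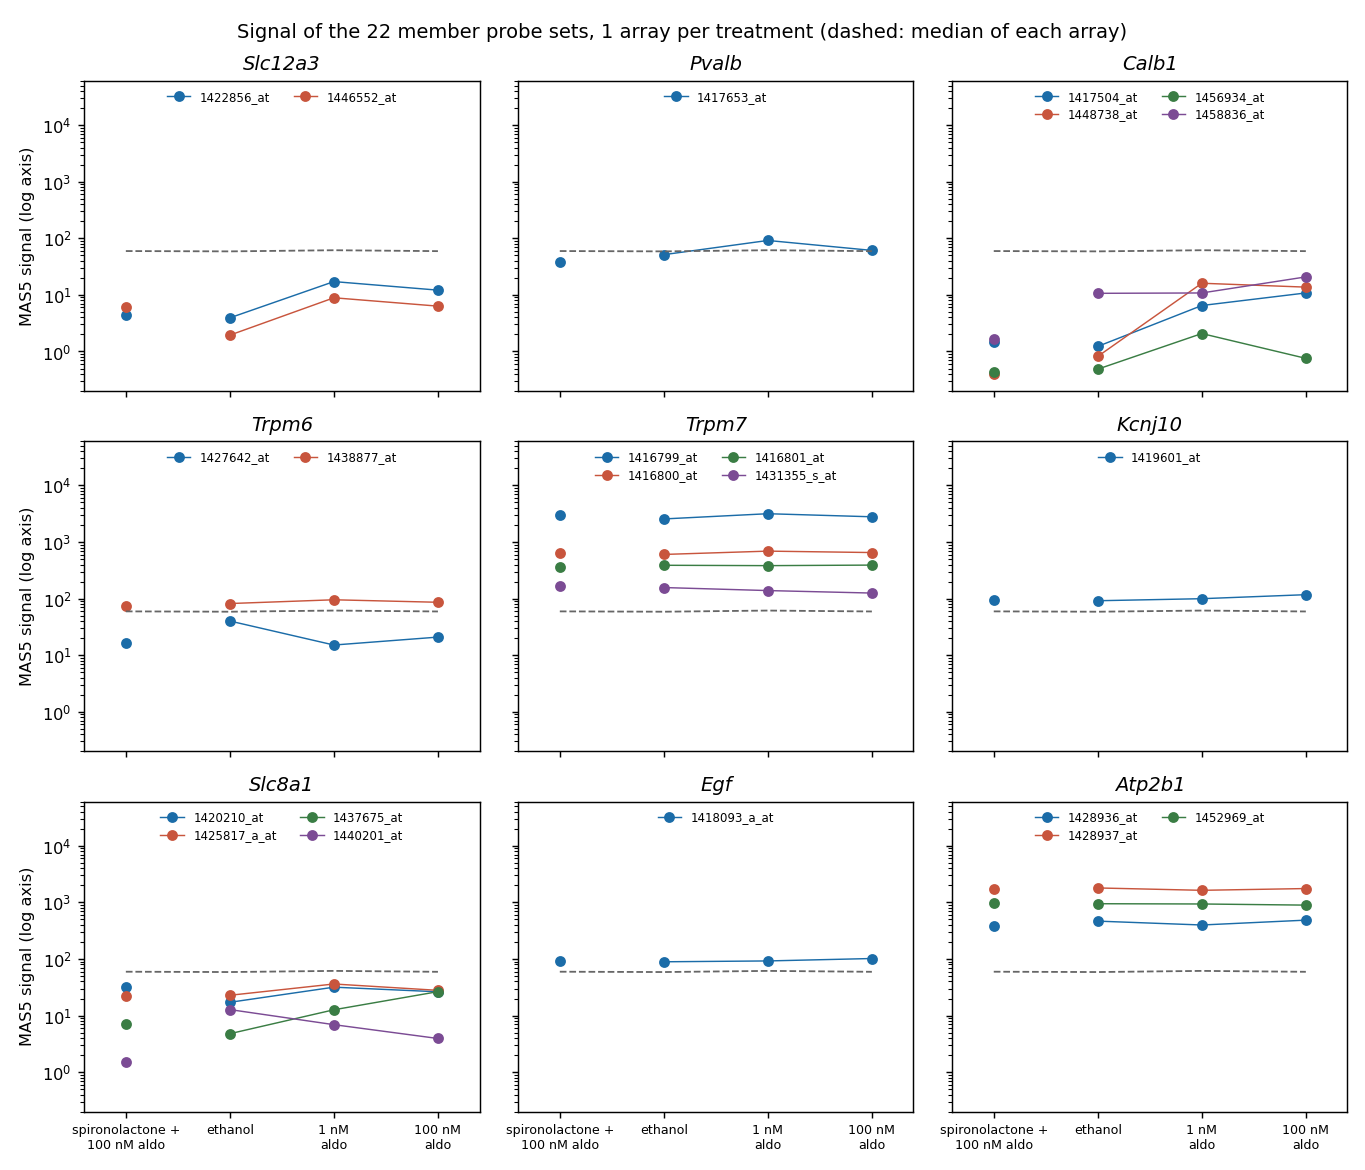
Signal of each member probe set on a log axis, 1 panel per gene, for the spironolactone array (set apart) and along the doses of aldosterone (joined by lines); the dashed line is the median of each array, and each point is 1 array. The Trpm7 and Atp2b1 probe sets lie above the dashed line in all 4 arrays, those of Slc12a3, Calb1 and Slc8a1 lie below it, and Pvalb crosses it.

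The promoters of these genes also differed in a feature that the choice of genes did not use, the number of CpG dinucleotides, which are dense at most broadly active promoters. RefSeq promoter windows (build GRCm38.p6) were found for 9 of the 10 genes, 12 windows in all. The 250 bases before the start of Trpm7, Trpm6 and Slc12a3 are shown because they set a gene whose probe sets were all above the median beside its relative with probe sets on both sides and a gene whose probe sets were all below. Capitals mark each CpG, and each sequence runs 5′ to 3′ on the strand of the gene. Trpm7 is at chr2:126876262-126876511 on the minus strand, Trpm6 at chr19:18749480-18749729 on the plus strand and Slc12a3 at chr8:94328958-94329207 on the plus strand.
Trpm7: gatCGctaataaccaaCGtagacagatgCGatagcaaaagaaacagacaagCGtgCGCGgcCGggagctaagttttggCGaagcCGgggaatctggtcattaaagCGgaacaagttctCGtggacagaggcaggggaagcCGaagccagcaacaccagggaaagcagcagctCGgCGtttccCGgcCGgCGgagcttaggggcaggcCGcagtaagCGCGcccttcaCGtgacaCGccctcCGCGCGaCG
Trpm6: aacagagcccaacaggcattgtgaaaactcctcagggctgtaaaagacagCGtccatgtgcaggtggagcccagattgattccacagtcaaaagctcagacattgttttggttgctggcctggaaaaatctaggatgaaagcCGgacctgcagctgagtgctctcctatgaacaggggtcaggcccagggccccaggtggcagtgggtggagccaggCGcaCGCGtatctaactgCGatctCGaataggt
Slc12a3: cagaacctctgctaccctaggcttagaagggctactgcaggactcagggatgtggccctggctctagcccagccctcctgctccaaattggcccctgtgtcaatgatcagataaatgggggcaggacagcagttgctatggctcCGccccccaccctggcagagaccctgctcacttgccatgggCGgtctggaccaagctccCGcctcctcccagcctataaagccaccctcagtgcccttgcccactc
These windows hold 26 CpGs in Trpm7, 7 in Trpm6 and 3 in Slc12a3.

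The ratio of observed to expected CpG, which allows for base composition, was 1.15 in Trpm7, 0.38 in Trpm6 and 0.13 in Slc12a3. The windows of Atp2b1 held 43 and 41 CpGs, with ratios of 1.17 and 1.01. Over all promoters the median ratio was 0.37. It was 0.73 over the 11552 promoters of genes whose brightest probe set was at or above the median signal and 0.32 over the 6557 promoters of genes below it. The members did not all follow that split: Slc8a1, below the median on the array, had 0.53, while Trpm6, with 1 probe set above, had 0.38. Kcnj10 had 0.83, Trpv5 0.073, and the pairs of windows of Pvalb (0.72 and 0.20) and Egf (0.90 and 0) differed within a gene.

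Corticosteroid receptors bind pairs of the half-site AGAACA, or TGTTCT on the other strand. At least 1 half-site, on either strand, was found in 2 of the 12 member windows of 300 bases (250 before and 50 after the start), 1 in Pvalb and 1 in Kcnj10, against 19% of all promoters. The paired site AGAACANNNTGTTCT, which reads the same on both strands and contains both half-sites, was found in 0 of the 12 and in 0.00913% of all promoters. A match in such a window is a description of its letters only.

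**Figure D2:**
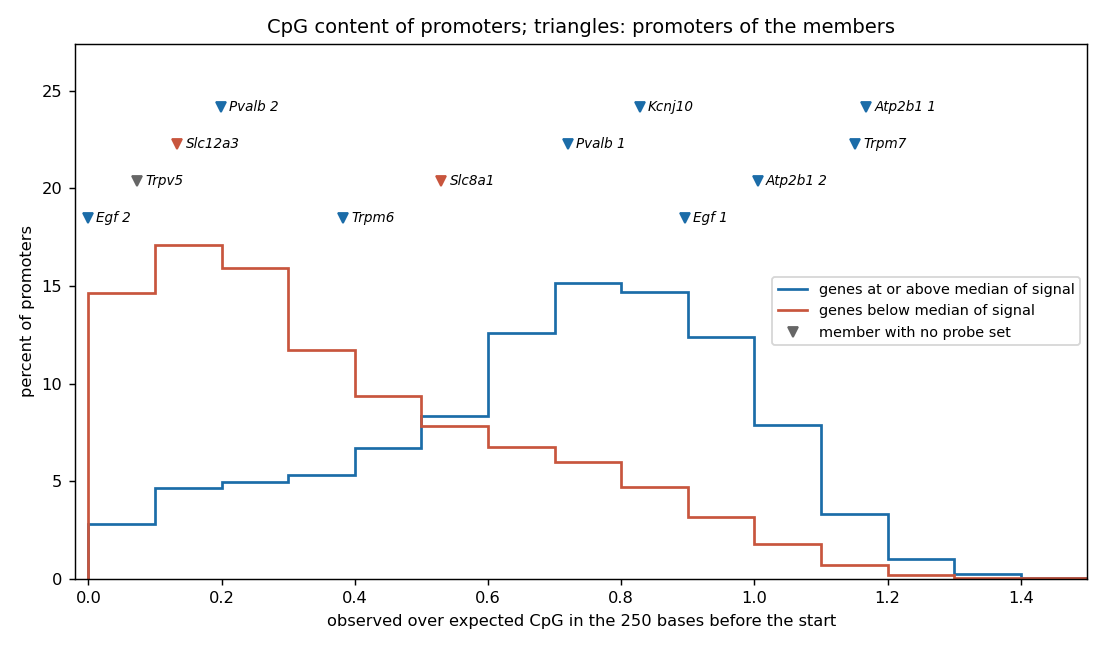
Share of promoters (vertical axis, percent) by the ratio of observed to expected CpG in the 250 bases before the start (horizontal axis), for genes at or above and below the median array signal; triangles place the 12 member windows, in the colour of their own class (grey for Trpv5, which has no probe set), and their height has no meaning. Trpm7 and both Atp2b1 windows lie at 1.01 or above, and Slc12a3 lies at 0.13.

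Slc12a3, the defining transporter of the segment, lay in the lower part of every array. Its probe set 1422856_at had signals of 4.35 in the spironolactone array and of 3.93 in ethanol, 17.2 with 1 nM and 12.1 with 100 nM aldosterone. The second, 1446552_at, had 6.11 in the spironolactone array and 1.95, 8.90 and 6.33 in ethanol, 1 nM and 100 nM aldosterone. All 8 values lay between the 4.14th and the 26.4th percentile of their arrays. Both probe sets were lowest in ethanol and highest with 1 nM aldosterone.

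Calb1 was dim in all 4 of its probe sets, with signals between the 0.249th and the 29.9th percentile of the arrays. Probe set 1448738_at had 0.403 in the spironolactone array and 0.820, 16.1 and 13.7 in ethanol, 1 nM and 100 nM aldosterone. Probe set 1417504_at had 1.49 in the spironolactone array and 1.23, 6.49 and 10.8 in ethanol, 1 nM and 100 nM aldosterone. Both had higher signals in the 2 arrays of aldosterone alone than in the other 2, at signals far below the array median. Probe set 1458836_at had 1.65 in the spironolactone array and 10.7, 10.8 and 20.8 in ethanol, 1 nM and 100 nM aldosterone, and 1456934_at had 0.439 in the spironolactone array and 0.488, 2.08 and 0.757 in ethanol, 1 nM and 100 nM aldosterone. In 1458836_at the values with 1 nM aldosterone and in ethanol were close, with a log2 difference of 0.02 that was -0.03 after quantile normalization and -0.05 with arrays centred on their medians.

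Pvalb straddled the median. Its only probe set, 1417653_at, had a signal of 38.3 in the spironolactone array and of 51.4 in ethanol, 91.5 with 1 nM and 61.1 with 100 nM aldosterone. It was above the array median with either dose of aldosterone alone and below it in the other 2 arrays, and its value with 100 nM was just above the median of 59.3.

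The magnesium channel genes were measured by 6 probe sets. For Trpm6, probe set 1438877_at had 73.1 in the spironolactone array and 81.9, 95.4 and 86.2 in ethanol, 1 nM and 100 nM aldosterone, while 1427642_at had 16.4 in the spironolactone array and 40.2, 15.1 and 20.9 in ethanol, 1 nM and 100 nM aldosterone. The first was highest with 1 nM aldosterone and the second was highest in ethanol, so the Trpm6 probe sets did not move together.

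The brightest Trpm7 probe set, 1416799_at, had 2942 in the spironolactone array and 2557, 3162 and 2790 in ethanol, 1 nM and 100 nM aldosterone, between the 92.8th and the 94.2nd percentile of the arrays. Its neighbour 1416800_at had 632 in the spironolactone array and 603, 690 and 652 in ethanol, 1 nM and 100 nM aldosterone, in the same order of arrays except that spironolactone fell below 100 nM. The other 2 differed. Probe set 1416801_at had 356 in the spironolactone array and 388, 383 and 391 in ethanol, 1 nM and 100 nM aldosterone, a range of 1.10-fold. Probe set 1431355_s_at, whose suffix marks probes that can match more than 1 transcript or gene, had 168 in the spironolactone array and 157, 139 and 125 in ethanol, 1 nM and 100 nM aldosterone.

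Among the calcium exit genes, Atp2b1 was bright in 3 probe sets and Slc8a1 dim in 4. Atp2b1 probe set 1428937_at had 1705 in the spironolactone array and 1796, 1632 and 1753 in ethanol, 1 nM and 100 nM aldosterone, and 1452969_at had 974 in the spironolactone array and 946, 936 and 894 in ethanol, 1 nM and 100 nM aldosterone. Probe set 1428936_at had 385 in the spironolactone array and 466, 398 and 485 in ethanol, 1 nM and 100 nM aldosterone. No array was highest in all 3 of these probe sets.

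The best placed Slc8a1 probe set, 1425817_a_at, had 22.1 in the spironolactone array and 22.8, 36.1 and 27.9 in ethanol, 1 nM and 100 nM aldosterone. The next, 1420210_at, had 31.4 in the spironolactone array and 17.1, 31.7 and 26.3 in ethanol, 1 nM and 100 nM aldosterone. Probe set 1437675_at was highest with 100 nM aldosterone and 1440201_at in ethanol, and their signals lay between 1.48 and 26.4. The highest Slc8a1 value reached the 39.4th percentile of its array.

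Kcnj10 and Egf lay a little above the median. Kcnj10 had 94.3 in the spironolactone array and 91.8, 99.7 and 117 in ethanol, 1 nM and 100 nM aldosterone, and Egf had 91.0 in the spironolactone array and 89.1, 92.3 and 102 in ethanol, 1 nM and 100 nM aldosterone. Both were highest with 100 nM aldosterone. With the median taken over only the probe sets with 1 gene symbol, which lay between 92.1 and 94.2, the probe sets of Kcnj10, Egf and Trpm6 were no longer above it in all 4 arrays and the count fell to 7 of 22. Just inside the array median in every array was Trpm6 1438877_at, with a lowest signal of 73.1, and just outside were Pvalb and then Trpm6 1427642_at, with a highest signal of 40.2.

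Across treatments, 0 or 1 of the members in the brighter part of the array passed 1.5-fold in each comparison, a count near the share of all probe sets of that signal, so it says nothing particular about the members. The median of the probe sets' mean log2 signals corresponds to a signal of 55.9, and 11 of the 22 member probe sets reached it, from 6 genes (Trpm7, Atp2b1, Kcnj10, Egf, Trpm6 and Pvalb). For the comparison of 100 nM aldosterone with ethanol, which asks what 3 h of the higher dose does, 0 of these 11 were at least 1.5-fold higher or lower, where 6.36% of all probe sets of that signal class were. Kcnj10 was highest, at 0.36 on the log2 scale, and Trpm7 1431355_s_at lowest, at -0.32. The median difference over the 11 was 0.07, against -0.01 over the 22519 probe sets of the class.

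With 1 nM aldosterone against ethanol, 1 of the 11 was past 1.5-fold, where 6.75% of the class were. It was Pvalb, with signals of 91.5 with 1 nM aldosterone and 51.4 in ethanol, higher by 0.83 on the log2 scale, or by 0.71 with the ethanol signal raised to 55.9. Trpm7 1416799_at was higher by 0.31 and Atp2b1 1428936_at lower, at -0.23. The median over the 11 was 0.05, against -0.01 over the class.

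Between the doses, 100 nM against 1 nM aldosterone, 0 of the 11 were past 1.5-fold, where 5.83% of the class were. Pvalb came nearest, at -0.58. Kcnj10 differed by 0.24 and Atp2b1 1428936_at by 0.29. The median over the 11 was -0.07, against 0.00 over the class.

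Spironolactone before 100 nM aldosterone was set against 100 nM aldosterone alone to ask which differences the antagonist removes. It cannot show removal for these members, since 0 of the 11 had passed 1.5-fold with 100 nM aldosterone against ethanol. Nor did any array receive spironolactone alone. In this comparison 1 of the 11 was past 1.5-fold, where 6.64% of the class were. It was Pvalb, with signals of 38.3 in the spironolactone array and 61.1 with 100 nM aldosterone, at -0.67 on the log2 scale; with signals below 55.9 raised to that value the difference was -0.13, so the call rested on a signal below the median. Kcnj10 differed by -0.32, Atp2b1 1428936_at by -0.33 and Trpm7 1431355_s_at by 0.42. The median over the 11 was -0.14, against 0.00 over the class.

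With spironolactone before 100 nM aldosterone against ethanol, 0 of the 11 were past 1.5-fold, where 6.3% of the class were, and the differences ran from -0.42 for Pvalb to 0.20 for Trpm7 1416799_at. These comparisons share arrays, so a high or low value in 1 array enters several of them. Past 2-fold there were 0 of the 11 in each comparison, where 1.53%, 1.47%, 1.26%, 1.37% and 1.3% of the class were, in the order in which the comparisons stand above. Of the 5 members above the 75th percentile of mean signal 0 were past 1.5-fold, where 0.586%, 0.844%, 0.444%, 0.497% and 0.551% of the probe sets that bright were.

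**Figure D3:**
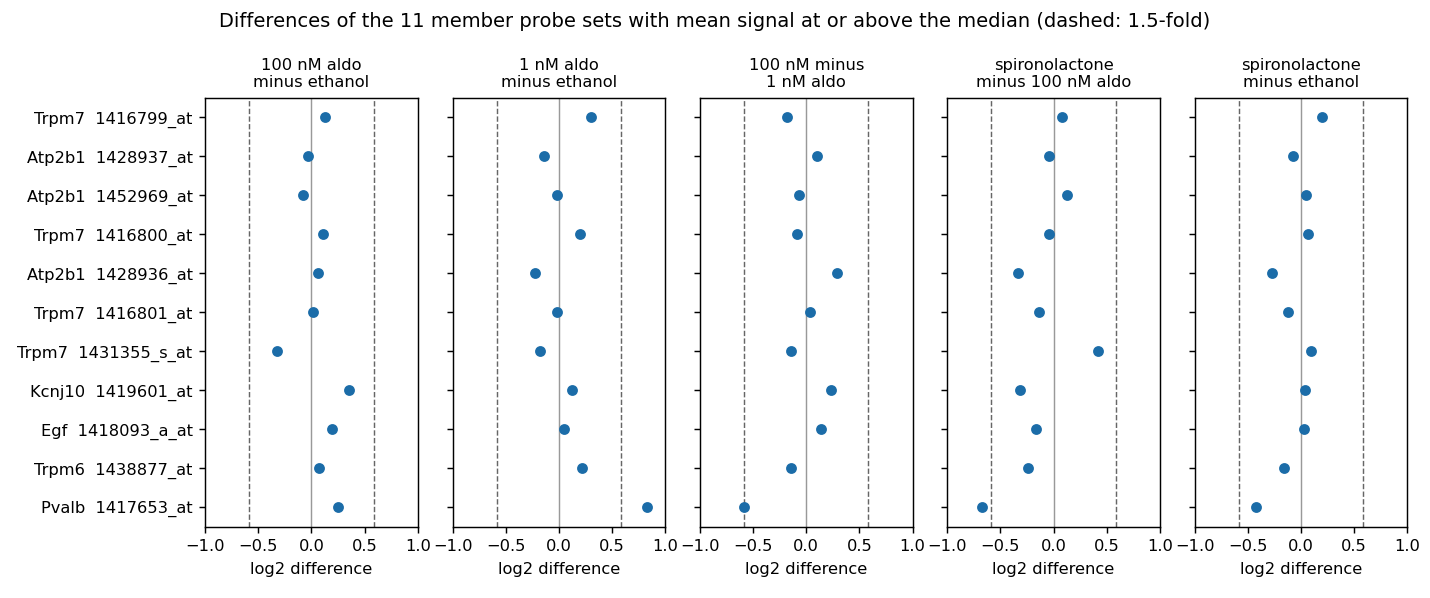
Difference of log2 signal (horizontal axis) for the 11 member probe sets with mean signal at or above the median, ordered by mean signal, in 5 comparisons of 1 array with 1 array; dashed lines mark 1.5-fold. Pvalb alone lies past a dashed line, with 1 nM aldosterone against ethanol and with spironolactone against 100 nM aldosterone.

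The spread over the 4 arrays shrank with signal across the whole array. The median range of a probe set, its highest minus its lowest log2 signal, was 0.16 above the 75th percentile of mean signal, a signal of 420, and 1.86 below the median. Of the 5 members above the 75th percentile, Atp2b1 1428936_at had a range of 0.33 and Trpm7 1416799_at one of 0.31, which 12.6% and 15.4% of the probe sets of that class equalled or exceeded. Ranges in the other 3, Trpm7 1416800_at, Atp2b1 1428937_at and Atp2b1 1452969_at, were 0.19, 0.14 and 0.13. Pvalb had a range of 1.26, and 4.04% of the probe sets between the median and the 75th percentile were as wide. Its mean signal of 57.6 lay at the lower edge of that class, and Atp2b1 1428936_at, with 431, lay near the lower edge of its own. Since spread shrank with signal, these shares do not compare either with probe sets of its own signal.

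The 11 probe sets below the median moved more, as most dim probe sets did. With 100 nM aldosterone against ethanol 8 were at least 1.5-fold higher, where 31.1% of all probe sets below the median were, and 2 lower (29.3%). With 1 nM aldosterone against ethanol 8 were higher (32.6%) and 2 lower (27.5%), and with 100 nM against 1 nM aldosterone 3 were higher (28.4%) and 2 lower (31.5%). With spironolactone against 100 nM aldosterone 0 were higher (29.2%) and 7 lower (32%), and against ethanol 2 were higher (29.3%) and 4 lower (30.7%). With signals raised to 55.9 each of these counts is 0, since all signals of the 11 lay under it; detection calls were not used here, and no fold is given for them. Over all 22 probe sets, dim ones included, the counts in either direction were 10 with 100 nM and 11 with 1 nM aldosterone against ethanol (33.4% of all probe sets in each), 5 between the doses (32.8%), 8 with spironolactone against 100 nM (33.9%) and 6 against ethanol (33.2%).

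One ordering was looked at after the values had been seen: both arrays of aldosterone alone higher than both other arrays. It was met by 13 of the 22 member probe sets, where 18.3% of all probe sets met it, and the reverse by 2, where 16.8% did. Below the median 8 of 11 met it (19.1% of that class), namely all 4 of Calb1, both of Slc12a3 and 2 of 4 of Slc8a1. At or above the median 5 of 11 did (17.4%), 1 each of Trpm7, Pvalb, Egf, Kcnj10 and Trpm6. Probe sets of 1 gene share their transcript, and 1 array stands for each treatment, so the count is not one of independent observations. With signals raised to 55.9 it was 5, a count with no share of all probe sets under that floor to set beside it.

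Other genes of the pathways were taken from lists, each gene by its brightest probe set. By that rule 57.1% of all 18193 genes with a symbol of their own were above the median in all 4 arrays and 34.4% in none. Of the 18 magnesium transport genes, all measured, 15 were above the median in all 4 arrays, Trpm6, Trpm7 and Egf among them. Beside these stood Magt1, with 4553 in the spironolactone array and 5027, 4838 and 4713 in ethanol, 1 nM and 100 nM aldosterone, the membrane magnesium transporter Mmgt1, Nipa2, Nipa1, Slc41a1, Slc41a2, the mitochondrial magnesium channel Mrs2 and Egfr, the receptor of Egf. Egfr had 1328 in the spironolactone array and 1114, 1209 and 1149 in ethanol, 1 nM and 100 nM aldosterone. Past 1.5-fold was 1 of the 15 in 1 of the 5 comparisons: the cyclin M family gene Cnnm3, with 91.2 with 100 nM aldosterone and 146 in ethanol, a log2 difference of -0.68. In that comparison 6.36% of all probe sets with mean signal at or above the median were past 1.5-fold. The genes of the paracellular magnesium route, Cldn16 and Cldn19, and Cnnm1 were below the median in all 4 arrays.

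Of the 20 calcium transport genes 19 were measured, and 5 were above the median in all 4 arrays and 11 in none. Above were Atp2b1, the endoplasmic reticulum calcium pumps Atp2a2 and Atp2a3, the vitamin D receptor Vdr and the calcium-sensing receptor Casr. Atp2a3 had 63.4 in the spironolactone array and 69.3, 111 and 105 in ethanol, 1 nM and 100 nM aldosterone. Its log2 differences past 1.5-fold were 0.60 with 100 nM and 0.68 with 1 nM aldosterone against ethanol and -0.73 with spironolactone against 100 nM, and with a pseudocount of 16 the first 2 fell under 1.5-fold, at 0.50 and 0.57. With arrays centred on their medians the difference between 100 nM and ethanol was 0.58, also under 1.5-fold. Casr differed by 0.77 between 100 nM and 1 nM aldosterone, with signals of 117 with 100 nM and 68.6 with 1 nM. Only 6 genes of this list had a mean signal at or above the median. Against ethanol, 1 of the 6 was past 1.5-fold with 100 nM and 2, Pvalb included, with 1 nM (6.36% and 6.75% of all probe sets of that class). Between the doses it was 1 (5.83%), and with spironolactone against 100 nM it was 2, Pvalb included (6.64%). With 1 array per treatment these counts carry no test.

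Of the segment identity list, 17 of 20 genes were measured, and 5 were above the median in all 4 arrays: the members Egf, Trpm6 and Kcnj10, the HNF1 cofactor gene Pcbd1, and Hsd11b2, whose enzyme protects MR from glucocorticoids. Pcbd1 had 4873 in the spironolactone array and 5354, 4917 and 5157 in ethanol, 1 nM and 100 nM aldosterone, and Hsd11b2 had 103 in the spironolactone array and 148, 126 and 155 in ethanol, 1 nM and 100 nM aldosterone. The other 12 included the chloride channel subunit Bsnd, the channel subunit Kcnj16 and the sodium pump regulator Fxyd2, each above the median in at most 1 array. They also included Nr3c2, the mouse gene of MR, below the median in all 4; probes against the mouse gene do not check the human transgene. Pvalb was the only gene of this list past 1.5-fold, in the same 2 comparisons as above.

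Markers of other cell types were set beside these. All 6 thick ascending limb genes were below the median in every array, Slc12a1, Cldn10 and Kcnj1 being the brightest, and their summed signal was 86.6 in the spironolactone array and 103, 116 and 71.0 in ethanol, 1 nM and 100 nM aldosterone. Of the 10 principal cell genes and the 7 intercalated cell genes, 0 were above the median in all 4 arrays; the brightest were Scnn1a, Aqp3 and Scnn1b, and Aqp6, Atp6v0d2 and Slc4a1. Proximal tubule genes were above in 3 of 9, Aqp1 (2133 in the spironolactone array, and 2069, 2247 and 2479 in ethanol, 1 nM and 100 nM aldosterone), Lrp2 and Cubn. Endothelial and leukocyte genes were above in 0 of 5 each, with Kdr, Cdh5 and Emcn, and Cd68, Adgre1 and Cd3e, the brightest.

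Of the 10 epithelial genes measured 4 were above in all 4 arrays, among them the junction protein gene Tjp1, the kidney cadherin Cdh16 (2406 in the spironolactone array, and 2667, 2463 and 2510 in ethanol, 1 nM and 100 nM aldosterone) and the nephron transcription factor Pax8. Epcam was the other of these 4. The remaining 6, Cdh1, Krt7, Krt8, Krt18, Krt19 and Cldn7, were below the median in every array. Of these E-cadherin, Cdh1, named after its values were seen, had 5.21 in the spironolactone array and 8.58, 7.96 and 21.5 in ethanol, 1 nM and 100 nM aldosterone. Of 10 fibroblast and mesenchymal genes 5 were above, with Vim, the N-cadherin gene Cdh2 and Fn1 the brightest. Col1a1, Col1a2, Col3a1, Pdgfra and Pdgfrb were not above in all 4 arrays. The summed signal of the 10 was 43885 in the spironolactone array and 43068, 41922 and 43658 in ethanol, 1 nM and 100 nM aldosterone. In the spironolactone array Vim alone had 22971, and the sum of the epithelial genes was 8542. Such sums follow their brightest probe sets and do not rank the lists. Of the 17 measured genes of the identity list, 12, Slc12a3 and Calb1 among them, were not above the median in all 4 arrays. Of all genes, 57.1% were above it in all 4, but that is not a share of segment markers. Above it in all 4 were 5 of the 17 identity genes, 3 of 9 proximal tubule genes and 0 of 6 thick ascending limb genes. For principal and intercalated cell genes it was 0 of 10 and 0 of 7. These counts do not test the label of the line. Umod, 1 of the 12, was also in the thick ascending limb list. What sets these levels was not tested.

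**Figure D4:**
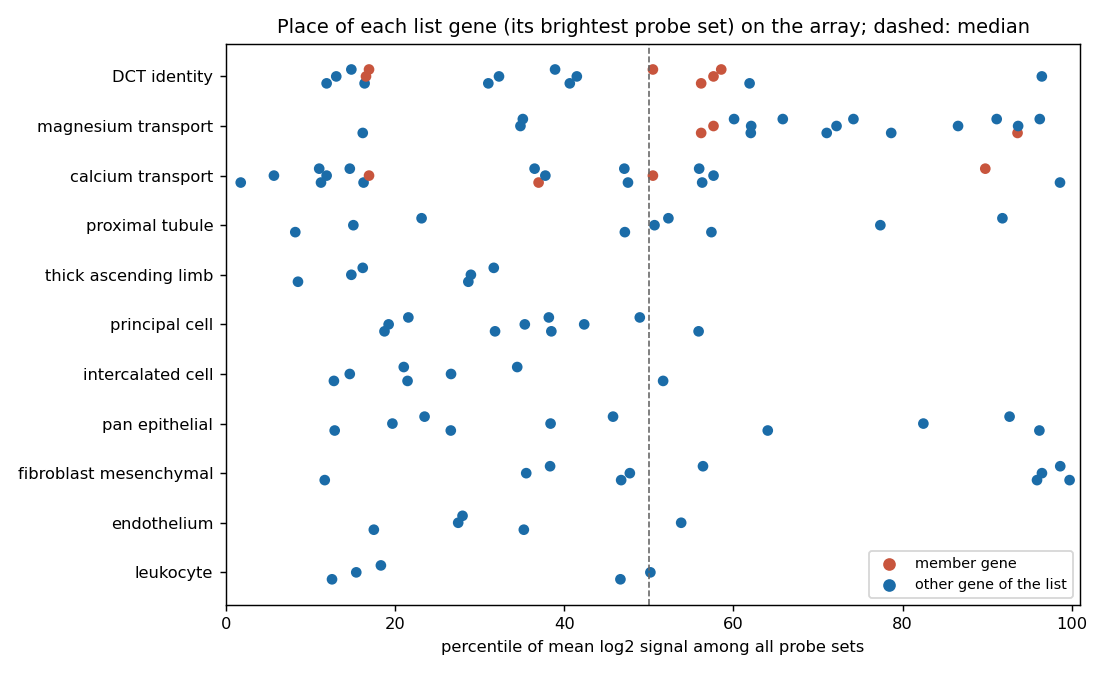
Place of each gene's brightest probe set, by mean log2 signal over the 4 arrays, as a percentile of all probe sets (horizontal axis), with 1 row of points per gene list; red points are member genes and the dashed line is the median. Magnesium transport genes lie mostly above the line, and thick ascending limb genes lie below it.

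Among the member probe sets above the median in all 4 arrays, the widest range was that of Trpm7 1431355_s_at, at 0.42. The closest profiles, by the Euclidean distance between log2 values centred on their own mean over the 4 arrays, were those of Fam149a (0.022), Naa60 (0.031) and Prickle1 (0.038). With only 4 points, 82 of 18333 probe sets lay within 0.1.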

How the data were processed

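Biotin-labelled cRNA, made from 250 ng of RNA of each of 4 cultures, was measured on Affymetrix arrays. The deposited intensity of each probe set is a linear signal computed by the authors with MAS5, per the submitters' processing notes, in a version not given in the sources used here. Detection calls were not used. The 2% trimmed mean of the 4 arrays was 500.0 each, so they had been scaled alike, and no further scaling was applied. Treatments were read from each array's label, and 0 columns belonged to other samples.

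Of 45101 probe sets 64 were controls and were left out. The platform annotation gave 34945 of the rest 1 gene symbol, 932 several and 9160 none; 34741 of the first were found in RefSeq by Entrez identifier. Member symbols occurred in 0 probe sets with several symbols. Differences are of log2 signal with no pseudocount, and counts of calls use 1.5-fold, over probe sets with a mean log2 signal at or above the median unless stated. The filter, scaling, pseudocount, floor and probe set choice were varied. Counting was checked on simulated data.

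The members and the gene lists were chosen with earlier results of these data known. Genes named beside the members are, per pathway list, up to 8 by mean signal that were above the median in all 4 arrays and those past 1.5-fold, and the 3 brightest of each cell type list; other genes were named after their values were seen. Promoter letters and windows are RefSeq's, build GRCm38.p6. The array data name no build, so the only coordinates given are those of RefSeq promoter windows. Python 3.11.15, NumPy 2.4.6, pandas 2.3.3, SciPy 1.17.1 and matplotlib 3.10.9 were used.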

Additional observations from a re-analysis of the deposited data

How the results depend on the processing

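With 1 array per treatment there was no replicate to leave out. No paired analysis was possible because each treatment has 1 array. The number of member probe sets above the threshold in all 4 arrays was 10; it was 4 with the 75th percentile as the threshold, and 7, 10 and 11 with the median of probe sets with 1 symbol, with controls included, and by mean signal. Counts past 1.5-fold moved most with no filter on low signals: 10 with 100 nM and 11 with 1 nM aldosterone against ethanol, 5 between the doses, 8 with spironolactone against 100 nM and 6 against ethanol, where the filtered counts were 0, 1, 0, 1 and 0. The cause lies in the construction, which adds the dim probe sets. The 2 calls of Pvalb were lost (0 each) with a filter at the 75th percentile or at 2-fold; that against 100 nM aldosterone was also lost (0) with a pseudocount of 16 and with signals raised to the median. Between the doses Pvalb became 1 call with arrays centred on the 75th percentile. The ordering with both aldosterone-alone arrays highest, added after seeing the data, held for 13 probe sets, for 11 to 13 under other scalings and for 5 with the floor. The share of all probe sets meeting it was taken only for the signals as deposited. Taking 1 probe set, or the mean of the probe sets of a gene, changed no count over the members at or above the median. Over the 11 dim members a pseudocount of 16 lost 6, 7, 5, 3 and 3 calls in the comparisons as ordered above, and spironolactone against ethanol gained 1 call (Slc8a1 1437675_at) with quantile normalization and with centring on the 75th percentile. No called difference of a member or list gene changed sign under the scalings, the pseudocount or the floor. Detection calls would be needed to say which dim signals exceed background.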
